A study of Mus musculus with 22 samples.

Results

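DNA methylation was compared between Müller glia of NMDA-injured mouse retinas (3 libraries) and Müller glia of untreated mice aged 1.5 years (3 libraries). The measure was the percent of reads carrying a methylated cytosine at each CpG position, from reduced representation bisulfite sequencing (RRBS), a method that reads the CpG-rich part of the genome after restriction digestion. Positions listed in all 6 libraries on the autosomes were kept, which left 1113516 of 1137816 common positions; 743808 autosomal positions were common to all 12 RRBS libraries of the series. The series holds 22 libraries, RNA and RRBS together.

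The cells were sorted for the fluorescence of an Rlbp1-GFP reporter, so that a cell is in the sample because the Rlbp1 promoter, active in Müller glia, drove the reporter in it. All mice were C57BL/6. The injured group were young mice, 2 to 3 months old, given NMDA into the vitreous 2 days before the cells were taken. The aged group was untreated. Injury and age therefore cannot be told apart in the 6 libraries. Untreated young Müller glia of 2 to 3 months (3 RRBS libraries) and retinal progenitor cells (RPC) of embryonic day 12.5 (3 RRBS libraries) did not enter the tests and are given beside the results as levels only. The replicates are labelled as biological, and the sex of the mice is not given in the sources used here.

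Müller glia span the retina and support its neurons: they take up glutamate and convert it to glutamine, buffer potassium and recycle visual pigment. NMDA, a glutamate receptor agonist, kills ganglion and amacrine cells and drives Müller glia into a reactive state. DNA methylation is laid down at CpGs by DNA methyltransferases and removed with the help of TET enzymes. CpG-dense gene starts are mostly unmethylated, gene bodies and the spaces between genes are mostly methylated, and imprinted control regions carry methylation on the allele of only 1 parent.

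The median coverage at the common positions was 42, 77 and 43 reads in NMDA libraries 1, 2 and 3 and 73, 63 and 60 reads in aged libraries 1, 2 and 3. Intervals and calls cover counting error and the spread between libraries, and reads were not marked by molecule. Outside the autosomes the NMDA libraries did not form 1 group. Of 24144 common positions on the X chromosome, 63.0% lay between 10 and 90% methylated in NMDA library 1 and 63.0% in NMDA library 2. The share was 18.95% in NMDA library 3 and 16.2, 15.3 and 14.9% in the aged libraries. The Y chromosome had 258 and 405 listed positions in NMDA libraries 1 and 2, against 3332 in NMDA library 3 and 5411, 4074 and 3510 in the aged libraries. NMDA libraries 1 and 2 thus stood apart from the other 4 on both sex chromosomes, which are left out below, and the main autosomal results are also given for NMDA library 3 on its own.

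The autosomes of the injured glia were slightly more methylated. The mean level was 34.8, 34.8 and 35.4% in the 3 NMDA libraries and 33.1, 33.6 and 32.7% in the 3 aged libraries. Every NMDA library lay above every aged one. The means were 34.98% ± 0.344 (SD, n = 3) and 33.1% ± 0.438 (SD, n = 3), a difference of 1.86 points. An exact two-sided permutation test gave p = 0.1, the smallest value that 3 against 3 libraries can reach. Leaving out any 1 library moved the difference between 1.66 and 2.10 points. The difference was one of low and intermediate positions: 53.8% of positions were under 10% methylated in the NMDA libraries and 57.7% in the aged, whereas 24.4% and 21.1% lay between 10 and 90%. Positions over 90% made up 21.8% and 21.2%. Each of these 3 shares also separated the groups without overlap at the same exact p = 0.1. The share of positions at exactly 0 overlapped between the groups, at 46.2, 36.6 and 41.5% in NMDA and 45.3, 43.1 and 46.04% in the aged libraries (exact permutation p = 0.4).

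**Figure D1:**
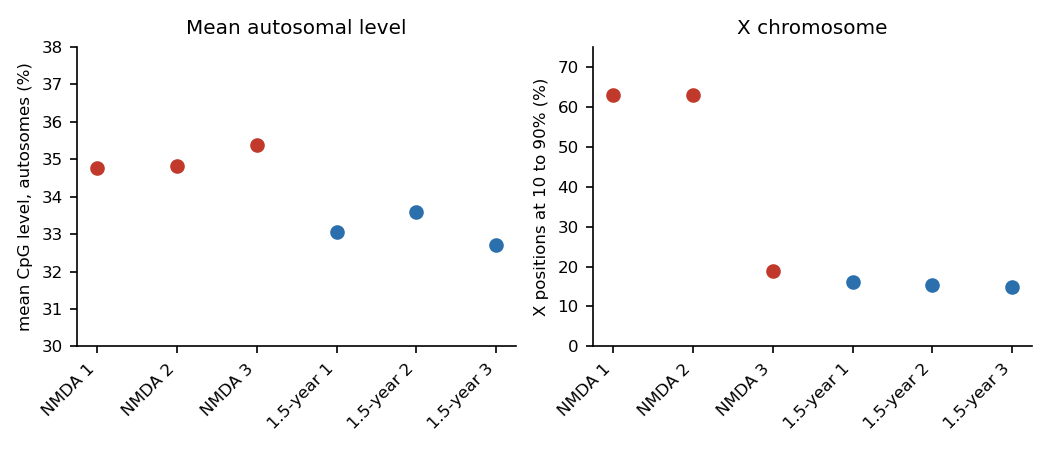
Mean methylation level over the common autosomal positions (left, percent; the axis starts at 30) and share of X chromosome positions between 10 and 90% methylated (right, percent), 1 point per library, NMDA in red and 1.5-year in blue. On the autosomes all 3 NMDA libraries lie above all 3 aged libraries, and on the X chromosome NMDA libraries 1 and 2 lie at 63.0% with NMDA library 3 near the aged libraries.

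Nearly all differences between the groups were gains in the injured glia. Single positions were called where a quasi-binomial F test, adjusted by Benjamini-Hochberg over all positions, gave an adjusted p under 0.05 and the pooled levels differed by at least 10 points. Of 836316 positions that varied, 7850 were higher (0.939%) and 263 lower (0.0314%) in NMDA, so that 96.8% of the calls were gains. A CpG is read on each strand separately. At 98.3% of the 3903 gained positions whose opposite strand was also tested, the opposite strand was higher in NMDA too. For the lost positions the opposite strand was higher in NMDA at 25.98% of 127. These counts rested on all 3 NMDA libraries: 0 positions were called in either direction without NMDA library 1, 310 higher and 4 lower without NMDA library 2, and 16 higher and 0 lower without NMDA library 3. Without NMDA library 1, the quasi-binomial test still put 54418 positions higher and 12412 lower at an unadjusted p under 0.05 and the same size. Without aged library 2 the counts were 12227 and 465.

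Reads summed over fixed stretches of 1 kb gave steadier counts. Of 58389 tiles with at least 5 common positions, 3993 were higher (6.84%) and 175 lower (0.3%) in NMDA at an adjusted p under 0.05 and at least 5 points. The libraries of the groups did not overlap at 3903 of the gained and 165 of the lost tiles. Over all tiles, 25.2% had every NMDA library above every aged library and 2.88% the reverse. Differences in points for tiles, and for the windows at gene starts below, compare reads pooled over each group. Deeper libraries weigh more in them, and they can differ from the difference of the library means. The gains were moderate in size, with a median of 15.4 points and quartiles of 10.4 and 21.6. At least 25 points were gained by 645 tiles and at least 50 points by 12. The losses had a median size of 11.5 points, and 10 of them reached 25 points. Where the next tile along the chromosome was also tested, a gained tile's neighbour was gained in 204 of 611 cases (33.4%), against 6.84% of all tiles. A lost tile's neighbour was lost in 3 of 31 (9.68%), against 0.3% of all tiles. Gains lay on every autosome, from 5.33% of tiles on chromosome 3 to 8.04% on chromosome 5. Leaving out NMDA library 3 left 2210 gained and 62 lost tiles, leaving out NMDA library 2 left 2532 and 68, and leaving out NMDA library 1 left 3701 and 315. The lost tiles numbered 108 without aged library 1 and 110 without aged library 2.

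At the gained tiles the median difference from the mean of the aged libraries was 12.8 points in NMDA library 1, 13.7 points in NMDA library 2 and 19.8 points in NMDA library 3. These libraries lay above all 3 aged libraries at 97.9%, 99.98% and 99.8% of the gained tiles. The same libraries chose these tiles, so that separation is fixed by the choice. Over all tiles tested the median difference was 0.670, 0.713 and 0.774 points, and the libraries lay above all 3 aged libraries at 44.5%, 47.2% and 48.2%. NMDA library 3 was the highest of its group at 69.8% of the gained tiles, against 37.7% of all tiles tested. Aged library 3 was the lowest of its group at 62.0% of the gained tiles. When NMDA library 3, whose X and Y patterns were like those of the aged libraries, was set alone against the 3 aged libraries, the quasi-binomial test called 0 tiles, 0 gene windows and 0 positions. At an unadjusted p under 0.05 and at least 5 points it put 5480 tiles higher and 686 lower of 58265, and its smallest adjusted p was 0.0666.

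Tiles at gene starts gained least often. Of 13693 tiles within 1000 bp of a gene start 340 were gained (2.48%), of 23782 other tiles in gene bodies 2150 (9.04%) and of 20914 tiles outside genes 1503 (7.19%). A smaller shift ran through starts that stayed almost unmethylated. Among 8106 gene windows under 10% in all 6 libraries, the median level was 0.707, 0.779 and 0.763% in the NMDA libraries and 0.401, 0.437 and 0.370% in the aged libraries. All 3 NMDA values lay above all 3 aged values. Over all 9288 windows the median level was 0.862% in NMDA and 0.489% in aged glia. In young glia it was 3.67% over the windows also listed there, above both of these medians.

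Set beside the other groups, the gained tiles were low in young glia and mixed in progenitors. Their median level was 30.4% in NMDA and 11.0% in aged glia. In young glia it was 11.5% (3623 of the tiles listed) and in RPC 45.6% (3364 listed). By library the medians were 27.4, 27.5 and 36.4% in NMDA and 11.5, 12.1 and 8.98% in the aged. The 175 lost tiles had medians of 70.5% in NMDA, 86.2% in aged glia, 71.5% in young glia (117 listed) and 87.7% in RPC (158 listed). The young and RPC medians cover the listed tiles alone, and the NMDA and aged medians cover all gained or lost tiles. Whether the groups lie near each other on a shared set of tiles was not tested. The NMDA and aged libraries chose these tiles; the young and RPC libraries did not.

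Sorting all tiles by their young and RPC levels, which took no part in the test, showed where gains were frequent. Of 596 tiles under 25% in young glia and over 75% in RPC, 471 were gained in NMDA (79.0%) and 0 were lost. The mean level over these 596 tiles was 36.7% in NMDA and 13.7% in aged glia. Of 1409 tiles under 25% in young glia and between 25 and 75% in RPC, 763 were gained (54.2%). Where both young glia and RPC were under 25%, 1161 of 19739 were gained (5.88%). Where both were over 75%, 45 of 10312 were gained (0.436%) and 46 lost. A tile near the floor or the ceiling in both has little room to differ. The share of 79.0% was 61.6% without NMDA library 3, and at the other 5 libraries left out in turn it lay between 64.3 and 75%.

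**Figure D2:**
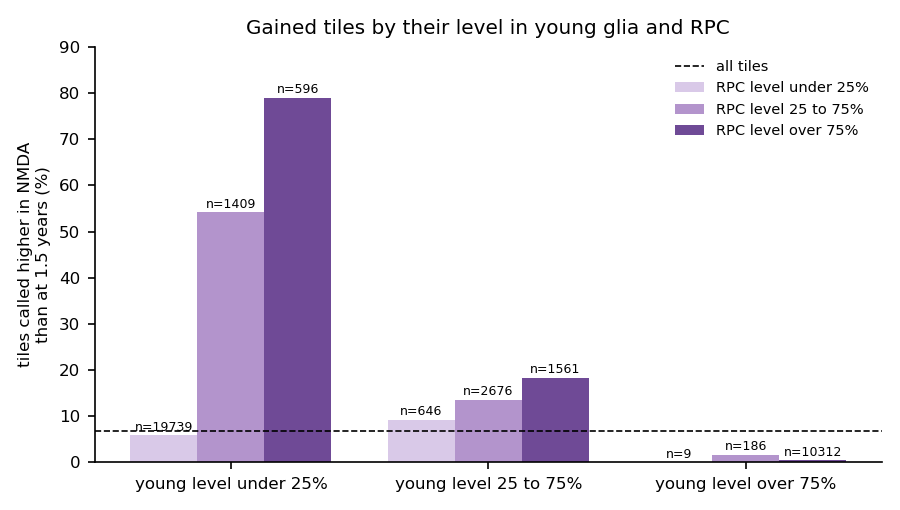
Percent of 1 kb tiles called higher in NMDA than at 1.5 years, by the tile's mean level in young glia (groups of bars) and in RPC (shade), with the number of tiles above each bar and the share over all tiles as a dashed line. The highest bar, 79.0%, is for tiles low in young glia and high in RPC.

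The 8 largest gains among tiles without overlap included 6 in gene bodies. The largest lay in Adam23, which encodes a surface protein of the ADAM family found in brain (chromosome 1, 63448000 to 63448999, mm10). Its level was 87.0, 73.0 and 85.8% in the NMDA libraries and 22.6, 24.8 and 11.7% in the aged, a gain of 61.6 points with an adjusted p of 0.0015 by the quasi-binomial test. All 3 RPC libraries were near the top there, with a mean of 95.6%. A tile in Creb5, which encodes a transcription factor of the CREB family (chromosome 6, 53530000 to 53530999), had 56.5, 67.4 and 91.2% in NMDA and 16.1, 13.9 and 5.56% in the aged libraries, a gain of 59.1 points (quasi-binomial adjusted p 0.00529).

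Numa1, which encodes a protein of the mitotic spindle poles, had the deepest coverage of the 8, with at least 737 reads per library over 14 positions (chromosome 7, 102000000 to 102000999). Its NMDA levels of 80.6, 73.6 and 91.0% stood against 23.4, 36.0 and 22.9% in the aged libraries (53.7 points, quasi-binomial adjusted p 0.00123). The young mean was 36.0% and the RPC mean 93.5%. In Flt1, which encodes a receptor for vascular endothelial growth factor, the tile at chromosome 5, 147580000 to 147580999, had 62.5, 61.3 and 71.8% in NMDA and 13.3, 28.8 and 0% in the aged libraries. Ptprm, which encodes a receptor-type tyrosine phosphatase, had 63.8, 63.0 and 87.4% against 10.9, 27.7 and 15.7%, with a young mean of 11.2% and an RPC mean of 90.3% (chromosome 17, 66944000 to 66944999). Decr2, which encodes a peroxisomal enzyme of fatty acid oxidation, had 71.1, 69.3 and 84.0% against 27.4, 21.6 and 7.69% (chromosome 17, 26087000 to 26087999). The other 2 tiles, on chromosomes 10 and 18, had no protein-coding gene within 10 kb. All 8 gains kept their call when any 1 library was left out. In the RPC libraries, 7 of the 8 tiles were listed, and their RPC means lay between 89.7 and 95.6%.

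The 8 largest losses were between -27.6 and -34.0 points, and 1 of the 8 kept its call when any 1 library was left out. The largest lay in Xpot, which encodes the exporter of transfer RNA from the nucleus (chromosome 10, 121616000 to 121616999). Its level was 55.9, 36.6 and 56.3% in NMDA and 79.9, 73.0 and 83.9% in the aged libraries, and the difference of -34.0 points was no longer called without NMDA library 2 (-23.9 points, quasi-binomial adjusted p 0.102). A pair of neighbouring tiles in Smad3, which encodes a signal carrier of transforming growth factor beta, were both lower in NMDA. In the tile at chromosome 9, 63744000 to 63744999, the levels were 80.4, 53.6 and 68.0% in NMDA and 92.3, 93.0 and 98.8% in the aged libraries, -28.8 points with a quasi-binomial adjusted p of 0.0115, and the call held without any 1 library. Its neighbour (chromosome 9, 63743000 to 63743999) differed by -28.2 points and lost its call without NMDA library 2 or 3 or any 1 aged library, at quasi-binomial adjusted p values between 0.056 and 0.0946.

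Rassf5, which encodes a Ras-binding protein, was lower at a tile by its start (chromosome 1, 131199000 to 131199999), with 71.7, 56.0 and 44.0% in NMDA and 88.4, 81.8 and 84.9% in the aged libraries. That difference of -30.0 points lost its call without NMDA library 2 (quasi-binomial adjusted p 0.0723), NMDA library 3 (0.0598) or aged library 1 (0.0728). In Anks1b, which encodes a scaffold of the synapse, the levels were 25.5, 36.3 and 24.5% against 51.7, 53.0 and 69.0% (chromosome 10, 90723000 to 90723999). It lost its call without NMDA library 1 (quasi-binomial adjusted p 0.0531), NMDA library 2 (0.0575), NMDA library 3 (0.0666) or aged library 3 (0.0757). The young mean at Anks1b was 50.4%, close to the lowest aged library. Klhl36, Myh10, which encodes a nonmuscle myosin heavy chain, and a tile on chromosome 5 away from genes made up the rest of the 8, at -29.0, -28.7 and -32.8 points. None of these 3 kept its call without NMDA library 2, where the quasi-binomial adjusted p was 0.164, 0.13 and 0.199, or without NMDA library 3 (0.116, 0.0558 and 0.124). Klhl36 also lost its call without aged library 2 (0.0799) or 3 (0.125), Myh10 without aged library 1 (0.0824), and the tile on chromosome 5 without any 1 aged library (0.0716 to 0.113).

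**Figure D3:**
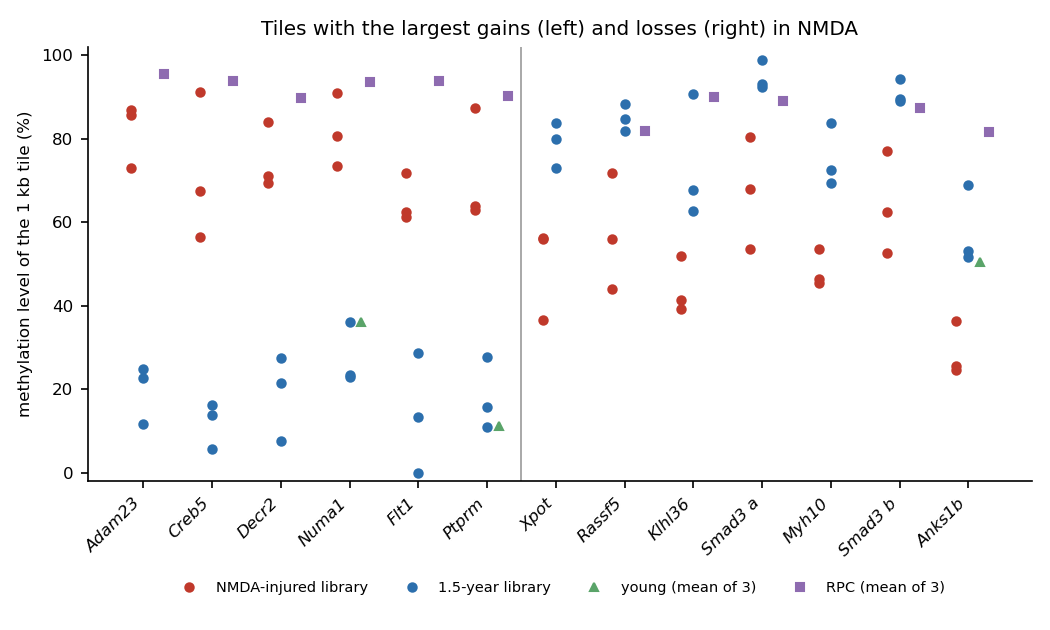
Methylation level (percent) of the named 1 kb tiles with the largest gains (left of the line) and losses (right) in NMDA: red points are the 3 NMDA libraries, blue points the 3 aged libraries, green triangles the young mean and purple squares the RPC mean where listed, and Smad3 a and b are the tiles starting at 63744000 and 63743000. At the gained tiles all red points lie above all blue points and below the RPC mean where it is listed.

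Single positions showed the same kind of site at higher contrast and lower depth. In Nudt4, which encodes a diphosphoinositol polyphosphate phosphatase, the position at chromosome 10, 95559702 was 80, 83.3 and 83.3% methylated in NMDA and 8.82, 0 and 0% in the aged libraries, on as few as 10 reads. Numa1 and Adam23, named above for their tiles, each held 1 of the 5 largest gains, and Ephb2, which encodes a receptor for ephrins, and Grk6, which encodes a receptor kinase, held the others. In Grk6 the aged libraries were themselves far apart, at 31.2, 71.4 and 11.96%. Of the 5 largest losses 4 lay away from genes. The fifth was in Prdm1, which encodes a transcriptional repressor of the developing retina, at 33.3, 21.8 and 13.6% in NMDA and 75.6, 71.4 and 81.4% in the aged libraries (chromosome 10, 44456711).

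Some genes were gained along much of their measured length. Sorcs2, which encodes a sorting receptor of neurons, had 9 of 18 tiles gained and 0 lost, with a median difference of 14.4 points over all 18. Tcf20, which encodes a transcriptional coregulator, had 9 of 13, and Pmepa1, which encodes a membrane protein that restrains transforming growth factor beta signalling, had 8 of 15. Tcf7l2, which encodes a transcription factor of the Wnt pathway, had 7 of 17. Longer genes offer more tiles, and the genes were picked here for their counts.

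At gene starts the windows of 1000 bp on each side of the annotated start were tested where they held at least 5 common positions. Of 9288 windows, 212 were higher (2.28%) and 22 lower (0.237%) in NMDA. Leaving out NMDA library 3 left 70 and 6, leaving out NMDA library 2 left 98 and 3, and without aged library 3 131 gains were called, while 12 losses were called without aged library 1. The gained windows were less dense in CpGs. The 300 bases around their starts held a median of 11 CpGs, against 22 over all windows and 20 in the lost windows. These calls carry the 5-point minimum, and the density of windows called without it was not computed.

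Pafah2, which encodes an enzyme that breaks down platelet-activating factor, was 56.8, 28.3 and 41.7% methylated at its start in the NMDA libraries and 6.44, 6.90 and 5.47% in the aged libraries. The gain of 31.8 points had a quasi-binomial adjusted p of 0.00802. All 3 aged libraries lay near the young mean of 8.43%, and the RPC mean was 87.5%. Zbtb20, which encodes a zinc finger repressor, had 46.7, 40.1 and 59.1% against 12.3, 17.6 and 8.91% (34.8 points, quasi-binomial adjusted p 0.00802), with a young mean of 13.3%. Both calls held without any 1 library. The stretch from 250 bases before to 50 after each start is printed for these genes and for Plagl1 and Nnat, described further on. The sequences are from RefSeq (GRCm38.p6, the same coordinates as mm10), 5′ to 3′ on the gene's strand, with the CpGs measured in all 6 libraries in capitals. Of the positions measured in each window, the stretch holds 8 of 9 at Pafah2, 3 of 7 at Zbtb20, 28 of 28 at Plagl1 and 7 of 43 at Nnat.
Pafah2: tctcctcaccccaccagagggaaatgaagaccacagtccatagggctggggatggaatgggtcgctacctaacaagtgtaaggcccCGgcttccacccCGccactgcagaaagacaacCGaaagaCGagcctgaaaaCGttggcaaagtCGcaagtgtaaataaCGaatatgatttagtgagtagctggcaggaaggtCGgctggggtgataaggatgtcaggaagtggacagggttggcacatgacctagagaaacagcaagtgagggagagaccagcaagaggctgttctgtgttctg
Zbtb20: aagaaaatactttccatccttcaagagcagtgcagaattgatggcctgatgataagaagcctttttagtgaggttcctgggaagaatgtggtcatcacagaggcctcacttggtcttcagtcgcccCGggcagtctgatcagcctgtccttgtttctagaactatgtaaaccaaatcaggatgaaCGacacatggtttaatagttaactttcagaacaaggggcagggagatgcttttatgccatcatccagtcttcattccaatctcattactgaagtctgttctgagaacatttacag
Plagl1: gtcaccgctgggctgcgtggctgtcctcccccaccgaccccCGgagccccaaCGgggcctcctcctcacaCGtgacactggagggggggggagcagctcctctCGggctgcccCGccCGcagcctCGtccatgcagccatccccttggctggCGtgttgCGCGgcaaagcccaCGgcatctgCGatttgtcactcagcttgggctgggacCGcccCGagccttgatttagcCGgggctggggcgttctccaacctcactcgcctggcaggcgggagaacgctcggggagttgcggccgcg
Nnat: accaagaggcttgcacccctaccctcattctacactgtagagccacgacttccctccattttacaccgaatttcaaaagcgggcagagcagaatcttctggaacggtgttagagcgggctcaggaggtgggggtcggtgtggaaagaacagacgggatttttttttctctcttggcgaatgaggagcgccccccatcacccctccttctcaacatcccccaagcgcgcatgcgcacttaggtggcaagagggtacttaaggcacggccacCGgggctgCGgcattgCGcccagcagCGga
The Pafah2 stretch is chr4:134402662-134402961 on the plus strand, and 8 of its 9 CpGs were measured. Over those 8 the level was 56.1, 28.4 and 41.0% in NMDA and 6.78, 7.13 and 5.68% in the aged libraries. The Zbtb20 stretch is chr16:43247034-43247333 on the plus strand, with 2 of 3 CpGs measured, at 41.8, 36.7 and 53.1% against 7.27, 9.71 and 2.51%. The Plagl1 stretch, chr10:13090582-13090881 on the plus strand, had 15 of 26 CpGs measured. The Nnat stretch is chr2:157559828-157560127 on the plus strand, and its 4 measured CpGs of 17 lie at its end, at 56.7, 43.6 and 50.6% in NMDA and 34.0, 27.7 and 17.9% in the aged libraries. In each of the 4 stretches every NMDA library lay above every aged library. The windows of all 4 genes were named from their calls in these same libraries, so this separation largely follows from the choice.

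Of the other large gains at starts, Hkdc1, which encodes a hexokinase-like enzyme, gained 29.9 points and lost its call without NMDA library 3 (quasi-binomial adjusted p 0.0638). Rtp2, which encodes a receptor transport protein, gained 34.1 points and lost its call without NMDA library 1 (0.0513) or NMDA library 3 (0.0638). Cav3, a caveolin of muscle, and Ddo, the oxidase of D-aspartate, gained 33.8 and 30.8 points, and calls were lost without most single libraries. Cav3 kept its call without NMDA library 1 alone, and the quasi-binomial adjusted p was 0.0642 to 0.148 without each of the others. Ddo kept its call without aged library 1 alone, and the adjusted p was 0.0566 to 0.12 without each of the others.

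The lost starts were led by Rassf5 (-28.8 points), whose window overlaps the tile above and lost its call without NMDA library 2 (quasi-binomial adjusted p 0.0792), NMDA library 3 (0.0653) or aged library 1 (0.0518). At Cmya5, which encodes a muscle protein, the levels were 2.48, 9.20 and 14.4% in NMDA and 28.0, 23.8 and 23.5% in the aged libraries. The young mean of 2.92% and the RPC mean of 0.558% were on the NMDA side. Its difference of -15.6 points lost its call without NMDA library 2 (quasi-binomial adjusted p 0.107) or aged library 1 (0.0503). At Adcy3, an adenylyl cyclase, the levels were 15.7, 15.5 and 11.9% in NMDA and 33.5, 23.0 and 22.0% in the aged libraries, with a young mean of 8.58%, and the call was lost without NMDA library 1 (0.0534), 2 (0.101) or 3 (0.0837). Kcnk10, a potassium channel gene, had 12.5, 10.02 and 9.70% against 24.7, 17.1 and 18.1%, a young mean of 8.78%, and lost its call without NMDA library 2 (0.112) or 3 (0.0757). In these 3 genes the young mean was below every aged library. The same held at Slc12a3 (young mean 88.0%), Lrrc4 (68.5%), Tecpr1 (8.06%) and Npepl1 (46.6%), and Rassf5 had no young value. Slc12a3, Lrrc4, Tecpr1 and Npepl1 completed the 8, at -11.1, -9.87, -9.21 and -9.18 points, and each lost its call without NMDA library 2 (quasi-binomial adjusted p 0.126, 0.191, 0.0777 and 0.104). Slc12a3 also lost it without aged library 1 (0.0509) and Npepl1 without NMDA library 3 (0.0757). Lrrc4 and Tecpr1 lost it without NMDA library 1 (0.0682 and 0.0684), NMDA library 3 (0.0863 and 0.0856), aged library 1 (0.0778 and 0.0712) or aged library 3 (0.0808 and 0.0942). The direction of 4 of these losses also turned with the setting. Within 500 bp of the start the pooled NMDA level was the higher, by 0.944 points at Adcy3, 0.294 at Tecpr1 and 0.240 at Kcnk10. In the linear model on mean levels the NMDA mean was the higher by 1.31, 2.16 and 1.21 points. At a minimum of 20 reads Lrrc4 was 3.66 points higher in NMDA.

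Gene lists were read against the 6.84% of all tiles gained. A tile was given to a gene that contained it or ended within 10 kb. The imprinted list stood highest, with 28 of 72 tiles gained (38.9%) and 0 lost, at 15 of the 19 genes with tiles. Nuclear factor I genes had 12 of 47 (25.5%), retinal progenitor genes 27 of 129 (20.9%), Müller glia genes 12 of 58 (20.7%) and Notch pathway genes 15 of 90 (16.7%), with 0 lost in each. Gliosis and injury genes had 5 of 82 (6.10%), neurogenic genes 7 of 105 (6.67%) and developmental transcription factors 24 of 531 (4.52%, with 2 lost), all at or under the share of all tiles. Tiles at markers of other cells gave 6 of 59 for photoreceptors (1 lost), 3 of 98 for inner retinal neurons (1 lost), 1 of 31 for microglia and macrophages, 2 of 31 for vascular cells and 2 of 19 for lens. Median differences over all tiles of a list were 7.04 points for imprinted, 4.13 for nuclear factor I, 2.40 for Müller glia, 1.81 for Notch and 1.47 for retinal progenitor genes, against 0.70 over all tiles. Some genes are on 2 lists. In the paragraphs on lists, single tiles were chosen after their values were seen.

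**Figure D4:**
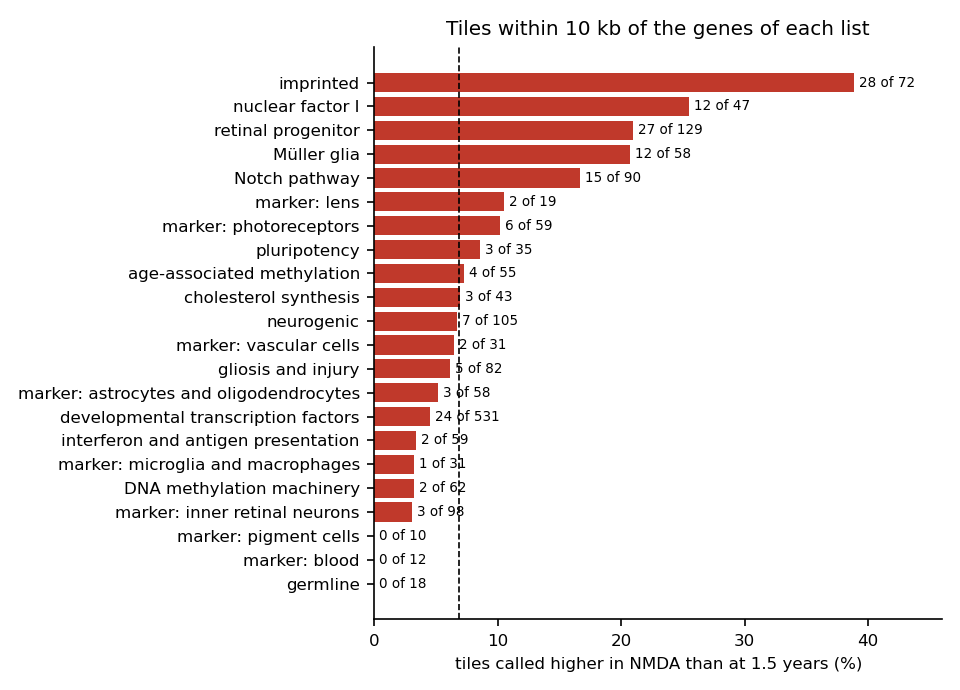
Percent of the 1 kb tiles within 10 kb of each list's genes that were called higher in NMDA than at 1.5 years, with counts beside the bars. The dashed line marks the 6.84% of all tiles, and imprinted genes reach 38.9%.

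Imprinted genes are expressed from the copy of 1 parent, and their control regions are expected near the middle of the scale when 1 allele is methylated. The median level over all 72 imprinted tiles was 37.98, 26.03 and 30.2% in the NMDA libraries and 12.9, 19.4 and 9.40% in the aged libraries. It was 5.86, 15.1 and 9.85% in young libraries and 42.3, 32.9 and 39.6% in RPC libraries, over the tiles listed there. All NMDA medians lay above all Müller medians of the untreated groups. At Gnas, the gene of a stimulatory G protein subunit, 6 of 10 tiles were gained. The tile at chromosome 2, 174286000 to 174286999, with 32 positions, had 52.1, 43.4 and 46.4% in NMDA and 10.4, 22.9 and 18.4% in the aged libraries (29.8 points, quasi-binomial adjusted p 0.00259). The young mean there was 15.8% and the RPC mean 43.7%.

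In Mest, which encodes a hydrolase-like protein expressed from the paternal copy, the tile at chromosome 6, 30735000 to 30735999, had 57.6, 49.2 and 35.4% in NMDA and 10.1, 21.5 and 2.40% in the aged libraries (37.9 points, quasi-binomial adjusted p 0.00636), with a young mean of 8.37% and an RPC mean of 34.5%. A tile by a start of Grb10, which encodes an adaptor of growth factor receptors, had close replicates: 31.1, 33.0 and 34.4% in NMDA and 18.7, 20.7 and 19.4% in the aged libraries (chromosome 11, 12026000 to 12026999, quasi-binomial adjusted p 0.00101). In Zrsr1, which encodes a splicing factor, the tile at chromosome 11, 22974000 to 22974999, had 40.5, 25.3 and 35.1% against 14.4, 14.1 and 8.54%. The calls at these 4 tiles held without any 1 library.

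By gene window, 7 of 15 imprinted genes were gained and 0 lost, against 2.28% of all windows. The window of Plagl1, which encodes a zinc finger protein, had 43.9, 36.9 and 39.04% in NMDA and 27.8, 18.9 and 21.2% in the aged libraries (16.4 points, quasi-binomial adjusted p 0.011), and this call held without any 1 library. The RPC mean was 38.4% and the young mean 17.4%. Nnat, which encodes neuronatin, had 49.0, 38.6 and 43.7% against 29.0, 26.5 and 17.5% (19.5 points, quasi-binomial adjusted p 0.013), and without NMDA library 3 the adjusted p was 0.0504. The start shared by Snrpn and Snurf had 51.6, 18.4 and 32.2% against 6.01, 11.6 and 3.94% (29.5 points), and its quasi-binomial adjusted p was 0.0569 without NMDA library 3. Igf2r, the receptor that clears insulin-like growth factor 2, was an exception in pattern: 2.61, 14.4 and 17.2% in NMDA against 2.02, 0.539 and 0.262% in the aged libraries. NMDA library 1 was close to the aged libraries there, the young and RPC means were 2.41 and 2.07%, and the call was lost without NMDA library 2 (quasi-binomial adjusted p 0.0591). Windows of 4 imprinted genes were gained without NMDA library 2 and of 2 without NMDA library 3, and tiles numbered 18 without NMDA library 3.

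**Figure D5:**
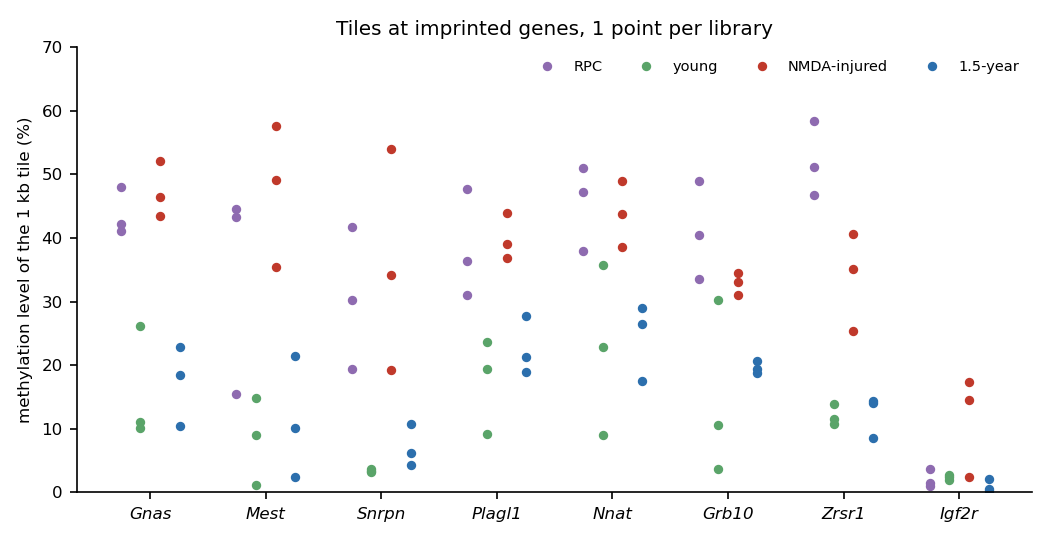
Methylation level (percent) of 1 kb tiles at 8 imprinted genes, 1 point per library, at each gene's gained tile of smallest adjusted p, for RPC (purple), young (green), NMDA (red) and 1.5-year glia (blue). At all 8 genes every NMDA point lies above every aged point. At Zrsr1 the NMDA points lie below the RPC points, and at Igf2r the RPC points lie near the aged points.

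Of the Müller glia genes, 1 of 11 start windows and 12 of 58 tiles were gained. Glul, the glutamine synthetase of Müller glia, had a tile at chromosome 1, 153904000 to 153904999, with 73.8, 68.0 and 84.0% in NMDA and 30.4, 25.6 and 25.1% in the aged libraries (45.4 points, quasi-binomial adjusted p 0.00119). The young mean was 37.7% and the RPC mean 95.3%. The start of Glul stayed unmethylated, at 0.523, 0.690 and 0.652% in NMDA and 0.378, 0.480 and 0.429% in the aged libraries. Kcnj10, the potassium channel of Müller endfeet, had 23.8, 19.5 and 21.8% against 5.40, 4.95 and 3.33% (chromosome 1, 172359000 to 172359999, 16.9 points, quasi-binomial adjusted p 0.0023). Dkk3, a secreted protein of the Dickkopf family, had 55.1, 49.4 and 56.3% against 17.8, 34.5 and 27.1%, with an RPC mean of 94.4% (chromosome 7, 112122000 to 112122999). These 3 tiles kept their calls without any 1 library.

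Rlbp1, which encodes the retinoid carrier whose promoter drives the reporter, was the member of the list called at its start. Its level was 53.5, 26.2 and 27.8% in NMDA and 9.16, 15.1 and 3.27% in the aged libraries, with a young mean of 5.59% and an RPC mean of 93.6%. The gain of 27.3 points had a quasi-binomial adjusted p of 0.0305 and lost its call without NMDA library 1 (0.0538), NMDA library 3 (0.0708), aged library 1 (0.0555) or aged library 3 (0.068). The measured positions of Rlbp1 lie outside the 300 bases described above. Whether the reporter transgene contributed reads was not tested. The gained tiles at Müller glia genes numbered 6 without NMDA library 3 and 7 without aged library 1.

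All 4 nuclear factor I genes, which encode transcription factors of late progenitors and glia, held gained tiles. Nfix had 7 of 20. In Nfix the tile at chromosome 8, 84723000 to 84723999, had 19.6, 20.6 and 19.5% in NMDA and 6.44, 8.22 and 2.78% in the aged libraries (14.2 points, quasi-binomial adjusted p 0.00311), and the start window had 14.0, 7.60 and 11.2% against 4.02, 3.26 and 3.32% (6.39 points, quasi-binomial adjusted p 0.0109). Both calls held without any 1 library. The start window of Nfia had 10.7, 3.23 and 8.70% against 0.212, 3.78 and 0.921%, the groups overlapped and the quasi-binomial adjusted p was 0.102.

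Among retinal progenitor genes, Lhx2, which encodes a LIM homeodomain factor of the eye field and of Müller glia, had 54.8, 46.9 and 62.9% against 24.2, 25.8 and 22.8% at chromosome 2, 38365000 to 38365999 (29.3 points, quasi-binomial adjusted p 0.00181). Its RPC mean was 84.1%. Hmga2, which encodes a chromatin protein of dividing progenitors, had 3 gained tiles. At chromosome 10, 120428000 to 120428999, its levels were 14.0, 18.6 and 19.6% in NMDA and 4.47, 5.46 and 4.73% in the aged libraries, with an RPC mean of 82.1% (quasi-binomial adjusted p 0.00119). Pax6, the homeodomain factor of the eye field, had 5 gained tiles of small size, between 5.60 and 12.8 points, of which 2 kept their call without any 1 library. Of the other 3, one fell under the 5-point minimum without NMDA library 3 (4.95 points), one without NMDA library 2 (4.84 points), and the tile starting at 105690000 lost its call without NMDA library 2, NMDA library 3, aged library 2 or aged library 3 (quasi-binomial adjusted p 0.102 to 0.255). At chromosome 2, 105680000 to 105680999, Pax6 had 14.3, 13.2 and 15.04% against 5.61, 5.09 and 1.72%. Here the young mean was 4.95% and the RPC mean 2.62%, so that the NMDA libraries were above every other group.

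In the Notch pathway, which holds cells in the progenitor or glial state, 10 of 18 genes held gained tiles, among them receptors, ligands and targets. The receptor gene Notch3 had 0 of 9 tiles gained and the ligand gene Dll3 0 of 5. In the receptor gene Notch1 the tile at chromosome 2, 26493000 to 26493999, had 19.3, 18.1 and 23.4% in NMDA and 5.23, 5.36 and 3.14% in the aged libraries (15.01 points, quasi-binomial adjusted p 0.00138). The RPC mean there was 85.8%. For the ligand gene Dll4 a tile outside the gene had 21.1, 23.5 and 27.5% against 4.67, 3.90 and 2.73% (chromosome 2, 119323000 to 119323999, 20.2 points, quasi-binomial adjusted p 0.00119). For the target Hes5, a tile had 10.2, 12.3 and 22.3% against 2.41, 1.93 and 0.991% (chromosome 4, 154958000 to 154958999), whereas the Hes5 start window, at 2.02, 2.28 and 1.48% against 1.12, 0.580 and 0.272%, missed the 5-point minimum. The RPC means at Dll4 and Hes5 tiles were 2.73 and 1.12%, lower than in NMDA.

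Of the tiles at gliosis genes, 5 of 82 were gained (6.10%, against 6.84% of all tiles). Lif, which encodes a cytokine of the injured retina, had 32.3, 29.8 and 21.5% in NMDA and 5.77, 7.26 and 4.87% in the aged libraries at a tile outside the gene (chromosome 11, 4276000 to 4276999, 22.9 points, quasi-binomial adjusted p 0.00205). Socs3, a feedback inhibitor of cytokine signalling, and Osmr, the oncostatin M receptor, each had 1 gained tile outside the gene, of 29.4 and 25.6 points. Nes, the intermediate filament nestin, had 2, of which that at chromosome 3, 87973000 to 87973999, kept its call without any 1 library. The other (quasi-binomial adjusted p 0.0412) kept it without aged library 2 alone, with 0.0678 to 0.143 without each of the others. The start windows of Vim, the intermediate filament vimentin, and Stat3, a transcription factor activated by cytokines, were near the floor in all libraries. Their highest values were 1.01% for Vim and 1.17% for Stat3. Both were higher in NMDA without overlap and missed only the 5-point minimum (quasi-binomial adjusted p 0.038 and 0.0424). A small shift of this kind ran through the 8106 low windows described above, and the windows called without that minimum are counted at the end. The young means were 3.74% at Vim and 4.51% at Stat3, above both groups. Gfap, Sox9, Lin28b, Nfib, Dnmt1 and Cx3cr1 had no start window with 5 common positions or no listed start.

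Of the methylation machinery, Tet1, Uhrf1 and Dnmt3b were also near the floor at their starts. Tet1 and Dnmt3b missed only the 5-point minimum, at quasi-binomial adjusted p values of 0.0473 and 0.0345, and Uhrf1 had 0.731. The small shift of the low windows applies here too, and the young means were 3.79% at Tet1 and 4.62% at Dnmt3b, above both groups. Tet1, a dioxygenase that oxidises methylcytosine, had 1.23, 1.27 and 1.38% in NMDA and 0.553, 0.696 and 0.877% in the aged libraries. Uhrf1, which recruits the maintenance methyltransferase, had 0.370, 0.443 and 0.432% against 0.661, 0.483 and 0.359%. Dnmt3b, a de novo methyltransferase, had 1.68, 1.67 and 1.74% against 0.653, 0.665 and 0.734%, a difference of 1.00 points. Dnmt3a, the other de novo methyltransferase, had 7.27, 16.8 and 18.1% against 7.18, 13.4 and 5.001%, with overlap and a quasi-binomial adjusted p of 0.177. The age-associated genes Elovl2, an elongase of fatty acids, and Fhl2, a LIM domain protein, were not called at their starts either. Their quasi-binomial adjusted p values were 0.0721 and 0.719. Of the tiles at age-associated genes, 4 of 55 were gained (7.27%, against 6.84% of all tiles) and 0 lost. Fhl2 had 1 of its 2 tiles gained, and Elovl2 had 0 of 4.

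Markers of photoreceptors, cells that a sort of Müller glia can carry along, held 6 gained tiles and 1 lost. In Gnat2, the transducin of cones, the tile at chromosome 3, 108076000 to 108076999, had 39.8, 48.3 and 70.5% in NMDA and 14.9, 12.7 and 7.51% in the aged libraries, with an RPC mean of 95.6%. Tiles by Abca4 (4 gained) and Nr2e3 (1 lost) were also among them. The Nr2e3 tile lost its call when any 1 library was left out (quasi-binomial adjusted p 0.0836 to 0.139). Of the Abca4 tiles, that at 122033000 lost its call without NMDA library 3 (0.0526), aged library 1 (0.0565) or aged library 3 (0.0636), and that at 122046000 without NMDA library 2 (0.0912), NMDA library 3 (0.0723), aged library 1 (0.0636) or aged library 2 (0.0538). The share of other cell types in the RRBS libraries was not measured.

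RNA libraries of the same groups (3 NMDA, 2 aged) gave the expression of the named genes. They are not stated to come from the same animals as the RRBS libraries, and a replicate number does not tie them. Counts per library totalled 15867733 to 17968517 in NMDA and 33213893 to 36486072 in the aged group. Of 18931 genes tested by edgeR's quasi-likelihood test, 1988 were higher (10.5%) and 1856 lower (9.8%) in NMDA at an adjusted p under 0.05. The counts were 591 and 644 without aged library 2 and 721 and 709 without aged library 1. The sum over 18 microglia and macrophage markers was 458, 5063 and 1003 CPM (counts scaled to a common library size) in NMDA libraries 1, 2 and 3 and 124 and 148 CPM in the aged libraries, and 8 of the 18 were higher. Of those 18 markers none was at 0 in any library. The sum over 9 lens genes was 312, 1488 and 303 CPM against 177 and 118 CPM, that over 20 photoreceptor genes 8763, 12691 and 14092 CPM against 10091 and 6695 CPM, and that over the 20 Müller glia genes 29922, 23037 and 30342 CPM against 58460 and 59118 CPM. Of those 20 Müller glia genes 12 were lower and 2 higher, with a median log2 difference of -0.75. Glul alone, the glutamine synthetase gene, had a mean of 4125 CPM in NMDA and 28849 CPM in the aged libraries. CPM of single genes, here and below, used library sizes adjusted by edgeR's TMM scaling. The sums over lists used raw library totals, so the 2 scales differ. The sum over 10 astrocyte and oligodendrocyte markers was 553, 508 and 580 CPM against 291 and 286 CPM, that over 20 inner retinal neuron markers 301, 513 and 351 CPM against 261 and 299 CPM, and that over 11 vascular markers 3456, 2422 and 3115 CPM against 2751 and 2651 CPM. The part of other cells in the RNA or methylation results was not tested, and in these bulk samples fewer cells of a type and less RNA per cell cannot be told apart.

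The starts called above were set beside the RNA of their genes. Of the 159 genes with a gained window that were tested for RNA, 12 were higher (7.55%) and 30 lower (18.9%) in NMDA, with a median log2 difference of -0.17. Of 7798 tested genes whose window was not called, 11.8% were higher and 11.3% lower, with a median of 0.09. For the 14 genes with a lost window the counts were 2 and 1. These shares are a description. Of the 24 genes named for their tile or window by size, 3 were higher and 3 lower.

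Glul RNA was 4732, 2762 and 4880 CPM in NMDA and 28230 and 29467 CPM in the aged libraries, a log2 difference of -2.81 with SE 0.26 (edgeR adjusted p 0.000295). Rlbp1 RNA was 1354, 682 and 1376 CPM against 3461 and 3117 CPM, a log2 difference of -1.53 with SE 0.36. Its edgeR adjusted p of 0.019 rose to 0.113 without aged library 1 and 0.0927 without aged library 2. Dkk3 had log2 -1.25 (edgeR adjusted p 0.000938), Notch2 -1.29 (0.000792), Flt1 -1.22 (0.00284) and Pmepa1 -1.47 (0.00225), each with gained tiles. The genes of this paragraph were picked from those with gained tiles, and the RNA shares over all genes with gained tiles were not computed. Adam23, with the largest gain, had log2 -0.77 (edgeR adjusted p 0.019). Its adjusted p was 0.0536 to 0.113 without NMDA library 2, NMDA library 3 or either aged library. Kcnj10 (log2 -0.40, edgeR adjusted p 0.142) and Lif (log2 1.07, 0.135), also with gained tiles, were not called. Osmr, with a gained tile outside the gene, was higher in NMDA, at 544, 483 and 491 CPM against 171 and 189 CPM in the aged libraries (log2 1.49, edgeR adjusted p 0.000366). Nes, with 2 gained tiles, rose to 208, 124 and 166 CPM from 14.2 and 12.7 CPM (log2 3.62, edgeR adjusted p 0.000399).

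Among the genes with a gained start, Pafah2 RNA was 29.3, 25.7 and 31.9 CPM in NMDA and 28.1 and 27.0 CPM in the aged libraries (log2 0.07, edgeR adjusted p 0.916). Zbtb20 had a log2 difference of -0.58 with an edgeR adjusted p of 0.0846, and Plagl1 one of -0.46 with 0.117. Of the imprinted genes, Nnat RNA was 5.66, 11.0 and 5.03 CPM against 22.1 and 27.2 CPM (log2 -1.76, edgeR adjusted p 0.00628, and 0.0606 without aged library 2). Peg3, which encodes a zinc finger protein and whose start window was gained by 17.6 points (the tile at chromosome 7, 6730000, lost its call without NMDA library 1, 2 or 3, at quasi-binomial adjusted p 0.0544, 0.0567 and 0.136, and the window was not tested with libraries left out), had 90.4, 83.4 and 92.2 CPM against 152 and 174 CPM (log2 -0.88, edgeR adjusted p 0.00175). Of 22 imprinted genes tested, 2 were higher and 7 lower, where 10.5% of all 18931 genes tested were higher and 9.8% lower. Smad3, with lost tiles, had a log2 difference of 0.45 and an edgeR adjusted p of 0.218.

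Among the genes of the methylation machinery, Uhrf1 RNA was 13.8, 15.1 and 9.83 CPM in NMDA and 0.89 and 1.14 CPM in the aged libraries (log2 3.66, SE 0.23, edgeR adjusted p 4.65e-05). Tet1 RNA was 50.8, 36.1 and 60.2 CPM against 167 and 180 CPM (log2 -1.82, SE 0.18, edgeR adjusted p 0.000399). Dnmt1, the maintenance methyltransferase, had 124, 128 and 129 CPM against 80 and 91.2 CPM (log2 0.57, edgeR adjusted p 0.00784, and 0.0885 without aged library 1). Dnmt3a and Dnmt3b were not called, at edgeR adjusted p values of 0.544 and 0.85.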

How the data were processed

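RRBS (12 libraries) and RNA (10 libraries) came as tables; per the submitters' processing notes the builds were mm10 and GRCm38 and the tools Trim Galore 0.4.3, Bismark 0.16.3, methylKit 1.4.0 and HISAT2 2.0.4. Per the file headers, the RRBS values deposited by the authors were the coverage (read count) and the percent of those reads that were methylated at each position and strand, listed from 10 reads. The deposited RNA values were raw read counts per gene. Methylated reads were rebuilt from coverage and percent with numpy 2.4.6 and pandas 2.3.3 under Python 3.11.15 (tests used scipy 1.17.1). Positions, 1 kb tiles and gene windows were tested with a quasi-binomial model, its overdispersion moderated across features with a floor of 1, and an F test adjusted by Benjamini-Hochberg; 277200 constant positions carried no test. The 2 strands stayed separate positions. Windows used RefSeq starts (17492 of 21887 protein-coding genes had one); measured positions were the C of a CG in 99.9% of 124549 places checked. RNA was fitted over all 10 libraries with edgeR 4.0.16 (R 4.3.3), TMM scaling and its expression filter. DESeq2 1.42.0 and limma 3.58.1 served in alternatives. The groups were taken from the labels. On simulated data the tile test recovered 15% of changes of 10 points and 72% of 25 points, the position test 0% and 10%, and the window test 65% and 94%.

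Named tiles and windows were the 8 largest gains and losses among calls without overlap (5 for positions), up to 3 called windows per list and a fixed set; predicted genes and clone names were left out. Members and lists were chosen with earlier results of these data known. Libraries of 1 group differed beyond counting noise, so none was merged. Sex chromosomes were left out by design. Results for genes withheld for evaluation are not reported here.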

Additional observations from a re-analysis of the deposited data

Results flagged for a closer look

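The X chromosome took no part in the comparison. There, 62.98% of common positions lay between 10 and 90% methylated in NMDA library 1, 62.97% in NMDA library 2 and 18.95% in NMDA library 3, each above the 14.9 to 16.2% of the aged libraries. NMDA libraries 1 and 2 also had fewer listed Y positions (258 and 405) than NMDA library 3 (3332). The labels do not give the sex of the mice, and the part of this split in the autosomal results was not tested beyond the values without each library and those of NMDA library 3 on its own.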

How the results depend on the processing

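The direction of the mean difference held under every alternative run (1.66 to 2.10 points), and the counts of calls did not. With the replicate number as a block, 0 positions, 0 tiles and 0 windows were called in either direction, the share of young-low, RPC-high tiles was 0%, and imprinted tiles, imprinted windows and Müller glia tiles were 0; at an unadjusted p under 0.05 the block put 6503 tiles higher and 660 lower and 269 windows higher and 41 lower. The deviations of same-numbered libraries had correlations of -0.051, -0.083 and -0.067, and those of differently numbered libraries ran from 0.0045 to 0.0664. Such values cannot show whether same-numbered libraries were handled together, so pairing by number stays unknown. In RNA the block called 1128 higher and 1119 lower with edgeR. NMDA library 3 alone against the aged libraries, added after seeing the data, gave 0 for each of these methylation counts and shares. A moderated linear model on mean levels, also added later, called 76 tiles higher and 3 lower, 0 windows, 2.01% of young-low, RPC-high tiles, 1 Müller glia tile, 0 imprinted tiles and 0 imprinted windows (unadjusted 6182 and 606 tiles, 207 and 22 windows).

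Positions called higher and lower numbered 17655 and 573 with sex chromosomes, 5038 and 112 with all 12 libraries in 1 fit, 90039 and 22934 in a plain logistic model, and 187 and 3 at 25 points and an adjusted p under 0.01. The plain logistic model called 10735 and 1809 tiles, 96.1% of young-low, RPC-high tiles, 19 Müller glia tiles, and about 4.2e+02 and 85 windows. All 12 libraries in 1 fit gave 79 lost tiles, 7 Müller glia tiles, 93 and 5 windows and 3 imprinted windows. A minimum of 10 points gave 114 lost tiles, 75.5% of young-low, RPC-high tiles, 7 Müller glia tiles and 114 and 8 windows. A minimum of 10 positions gave 2000 and 88 tiles and 7 Müller glia tiles, and 20 reads gave 6 Müller glia tiles. Windows numbered 434 higher with sex chromosomes, 1230 and 38 with no minimum difference, and 127 and 10 within 500 bp. RNA of the 2 groups alone gave 3376 and 3237 calls with edgeR.

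Leaving out each library in turn gave 0 to 12227 positions higher and 0 to 465 lower, 2210 to 3701 tiles higher and 62 to 315 lower, 61.6 to 75% of young-low, RPC-high tiles, 6 to 13 Müller glia tiles, 18 to 30 imprinted tiles, 70 to 209 windows higher and 3 to 30 lower, 2 to 8 imprinted windows, and in RNA 591 to 1638 higher and 644 to 1441 lower. Of 702 values of 117 named tiles with 1 library left out, 521 kept their call or lack of one, 181 lost their call and 0 changed direction. The tiles were named from calls in these same libraries, so the unchanged direction largely follows from the choice. Under the other alternatives 770 of 1169 tile values stayed the same and 399 lost their call. Among windows, Lrrc4 turned to 3.66 points at 20 reads. In the linear model and within 500 bp, Adcy3 turned to 1.31 and 0.944, Tecpr1 to 2.16 and 0.294 and Kcnk10 to 1.21 and 0.240 points. Uhrf1, not called, ranged down to -0.144 points with 1 library left out and turned to 0.045 (20 reads), 0.0154 (12 libraries), 0.00853 (without aged library 1), 0.0637 (linear model) and 0.134 (500 bp). The cause of these changes was not tested. Median coverage was 42 to 77 reads per position, and at a minimum of 20 reads 7737 positions were higher and 272 lower. Whether depth limits the calls was not tested further.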
